A study of Mus musculus with 9 samples.

Results

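Bhlhe40, Nfil3 and 8 genes of the circadian clock were followed across memory T cells specific for lymphocytic choriomeningitis virus (LCMV). The 10 genes are Bhlhe40, Nfil3, Per1, Per2, Cry1, Nr1d1, Nr1d2, Dbp, Tef and Clock, taken by symbol from the 48663 named entries of the deposited count table. All 10 were among the 15738 genes with enough counts to test. They were picked with their levels in these same libraries known, so their levels and differences, and how many of them the fit across all genes called, are given here as a description, with no p-value for any of them.

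RNA was sequenced from 9 libraries of T cells sorted from mouse spleen on day 30 after infection with the Armstrong strain of LCMV, an infection that the animals clear. The 3 CD4 ThpokAD libraries hold cells that bound GP66:I-Ab, a class II tetramer, from mice with Ox40-Cre and floxed Thpok alleles. The 3 CD8 control libraries hold cells that bound GP33:H-2Db, a class I tetramer, from mice without Cre. The 3 CD4 control libraries hold GP66:I-Ab binding cells, likewise from mice without Cre. Ox40 is a costimulatory receptor carried mainly by activated CD4 T cells, and its gene, Tnfrsf4, drives the Cre. Thpok, encoded by Zbtb7b, is the factor that commits T cells to the CD4 helper lineage. The ThpokAD mice alone carried Cre, so the presence of Cre and the missing Thpok cannot be told apart. All CD4 libraries were sorted with the class II tetramer and all CD8 libraries with the class I tetramer. Between CD4 and CD8 cells, lineage, epitope and tetramer binding therefore cannot be told apart. The labels do not say that replicates came from separate animals, so a p-value covers the spread between these libraries, which may be technical. For the time of day at which cells were taken, nothing is given in the sources used here.

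The clock is a feedback loop of transcription. Clock and Bmal1 (the product of Arntl) activate genes through E-boxes, among them the Per and Cry genes, whose proteins then repress Clock and Bmal1. A side loop runs through the nuclear receptors Rev-erb alpha and beta (Nr1d1 and Nr1d2), which repress Arntl, and the Ror receptors, which activate it. A further arm acts at D-boxes, where the related factors Dbp, Tef and Hlf activate and Nfil3 represses. Bhlhe40 (also called Dec1) is a repressor that binds E-boxes. In T cells both Bhlhe40 and Nfil3 are also known as factors induced on activation that shape cytokine production.

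Promoter windows of RefSeq on the GRCm38.p6 build were found for 8 of the 10 genes, with 12 start sites in all, and none was found for Bhlhe40 and Per2. In the 250 bases before each start, the E-box CACGTG occurred once in Per1, once in Cry1 and once at each of 2 starts of Tef. Over all 32851 windows of the same length, 6.02% held it. The variant CACGTT, searched on both strands, was in Cry1 and Nr1d1 and in 3.85% of all windows. The D-box letters TTATGTAA or TTACGTAA (0.931% of windows) and the cyclic AMP response element TGACGTCA (1.55% of windows), also read on both strands, were in none of the 12 windows. These are matches of letters only. The E-box genes Per1, Tef and Cry1 are shown, at the starts where the stretch given lies outside annotated exons. Their values in the libraries went 3 different ways, as described further on. Each stretch has 170 bases, from 200 to 31 bases before the start, and the capitals mark the E-box. They lie at chr11:69098749-69098918 (plus strand, Per1), chr15:81811214-81811383 (plus strand, Tef) and chr10:85185085-85185254 (minus strand, Cry1).
Per1: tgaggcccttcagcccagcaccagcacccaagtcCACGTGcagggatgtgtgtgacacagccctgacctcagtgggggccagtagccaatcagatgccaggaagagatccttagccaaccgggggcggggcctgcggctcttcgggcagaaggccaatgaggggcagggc
Tef: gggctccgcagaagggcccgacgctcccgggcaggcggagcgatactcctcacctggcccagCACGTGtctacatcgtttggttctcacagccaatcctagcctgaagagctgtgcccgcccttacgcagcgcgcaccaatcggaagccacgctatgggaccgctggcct
Cry1: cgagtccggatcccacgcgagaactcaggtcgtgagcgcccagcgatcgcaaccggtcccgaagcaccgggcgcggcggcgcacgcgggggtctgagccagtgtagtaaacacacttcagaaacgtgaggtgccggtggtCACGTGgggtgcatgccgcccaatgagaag

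Levels are CPM, the deposited counts scaled to a common library size after TMM normalization. Library totals lay between 16664474 and 38981516, with CD8 control replicate 3 the deepest. Values after ± are SDs over n = 3 libraries throughout. Zbtb7b lay between 0.698 and 0.875 CPM in the CD4 ThpokAD libraries, against 38.5 to 48.9 CPM in the CD4 control libraries, with a log2 fold change of -5.79 (SE 0.264). Tests are by edgeR's quasi-likelihood method, and p-values were adjusted by Benjamini-Hochberg over all genes (adjusted p = 3.35e-05 for Zbtb7b by edgeR). The summed level of 5 T cell markers was 5269 to 5534 CPM in CD4 ThpokAD, 4752 to 6173 CPM in CD8 control and 5207 to 5495 CPM in CD4 control. Cd4 was at 551 to 679 CPM in CD4 ThpokAD, 0.222 to 2.26 CPM in CD8 control and 1295 to 1409 CPM in CD4 control. The 8 B cell markers summed to no more than 73.5 CPM in any library, while 10 myeloid markers summed to 277 to 326 CPM in CD4 ThpokAD, 99.6 to 373 CPM in CD8 control and 157 to 261 CPM in CD4 control. Mpo had no count in CD4 ThpokAD or CD8 control. The 4 NK cell markers, of which Eomes is also carried by effector T cells, summed to 131 to 196 CPM in CD4 ThpokAD cells and 202 to 228 CPM in CD8 control, against 17.1 to 21.5 CPM in CD4 control. Cd8a and Cd8b1 together came to 90.8 to 123 CPM in CD4 ThpokAD cells, 2830 to 3832 CPM in CD8 control cells and 17.8 to 27.9 CPM in CD4 control cells. The 6 dendritic cell markers summed to 128 to 291 CPM in CD4 ThpokAD cells, 215 to 271 CPM in CD8 control cells and 40.1 to 47.9 CPM in CD4 control cells, and Siglech had no count in either CD4 group. Within that list, Itgax lay at 98.3 to 248 CPM in CD4 ThpokAD cells, 189 to 248 CPM in CD8 control cells and 12.5 to 15.1 CPM in CD4 control cells. Among the myeloid markers, Itgam lay at 17.2 to 46.6 CPM in CD4 ThpokAD cells, 26.5 to 39.4 CPM in CD8 control cells and 0.124 to 2.80 CPM in CD4 control cells. Between the CD4 groups, edgeR called both CD8 genes and 2 of 3 tested NK cell markers, all higher in CD4 ThpokAD. It also called Itgax, 1 of 5 dendritic, and Itgam, 1 of 9 myeloid markers, likewise higher. Of those lists Flt3, Clec9a, Zbtb46, S100a8 and S100a9 averaged lower in CD4 ThpokAD and were not called. Csf1r and Xcr1 were higher there without overlap (log2 fold changes 1.15 and 0.8) and not called either. Lyz2, Cd14, Adgre1 and Fcgr3 averaged higher with overlap, uncalled, and Csf3r differed little (-0.01). The median log2 fold change was -0.495 for the tested dendritic and 0.422 for the tested myeloid markers. The NK cell marker Klra8 had no count in either CD4 group. The part of such markers in the levels below was not tested.

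Bhlhe40 (chromosome 6, 108660629 to 108666925, plus strand, mm10 as for all positions) was by far the most abundant of the 10 transcripts in the CD4 cells. It stood at 2282, 2309 and 2669 CPM in the CD4 ThpokAD libraries, at 144, 121 and 154 CPM in the CD8 control libraries, and at 1374, 1424 and 1296 CPM in the CD4 control libraries. The 3 groups did not overlap, and the CD8 libraries stood far below both kinds of CD4 cell. The log2 fold change was 0.83 (SE 0.113) for CD4 ThpokAD against CD4 control, -3.29 (SE 0.123) for CD8 control against CD4 control and 4.11 (SE 0.128) for CD4 ThpokAD against CD8 control. These correspond to a level 1.77-fold higher, 9.76-fold lower and 17.3-fold higher. In sorted bulk cells, a smaller share of expressing cells and less RNA per cell cannot be told apart. The replicates of Bhlhe40 lay close together, with a pooled SD within groups of 0.133 on the log2 scale, lower than for all but 3.32% of the tested genes.

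Nfil3 (chromosome 13, 52967209 to 52981073, minus strand), the D-box repressor, followed the same order of groups. Its level was 169, 226 and 249 CPM in CD4 ThpokAD cells, 23.1, 24.7 and 21.3 CPM in CD8 control cells, and 149, 131 and 136 CPM in CD4 control. Again no 2 groups overlapped, although the lowest ThpokAD library lay close to the highest CD4 control library. The log2 fold changes were 0.63 (SE 0.159), -2.59 (SE 0.169) and 3.22 (SE 0.173) for CD4 ThpokAD against CD4 control, CD8 control against CD4 control, and CD4 ThpokAD against CD8 control.

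**Figure D1:**
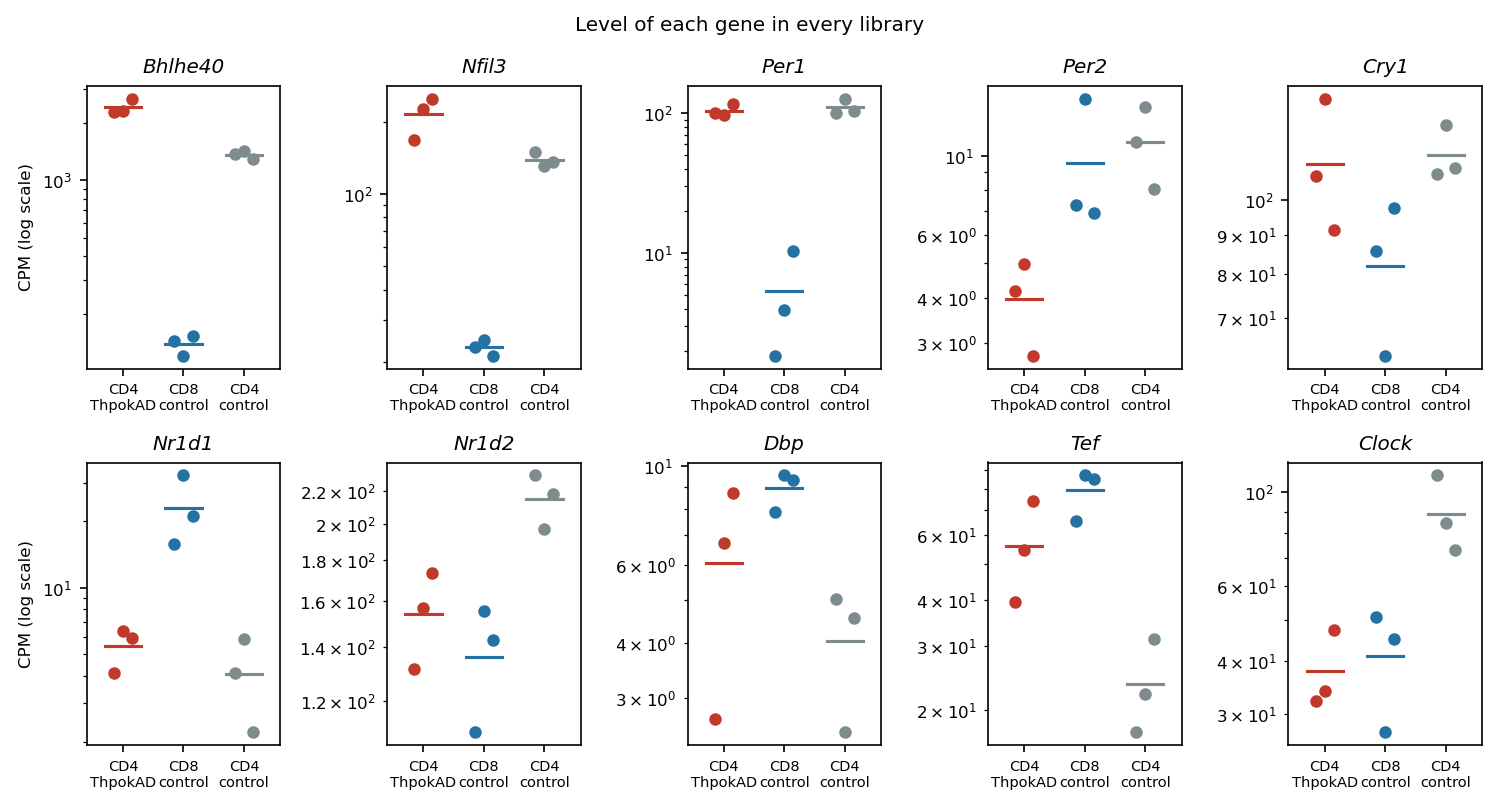
Level of each of the 10 genes in every library, in CPM on a log scale that differs between panels. Points are libraries (CD4 ThpokAD red, CD8 control blue, CD4 control grey) and lines are group means (n = 3). Bhlhe40 and Nfil3 are lowest in CD8 control and highest in CD4 ThpokAD, while Per1 is alike in both CD4 groups and low in CD8 control, and Nr1d1 is highest in CD8 control.

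The Period genes, whose proteins form the repressing arm with the cryptochromes, did not move as a pair. Per1 (chromosome 11, 69095217 to 69109960, plus strand) was at 99.7, 97.5 and 116 CPM in CD4 ThpokAD, at 1.84, 3.92 and 10.3 CPM in CD8 control cells, and at 101, 127 and 105 CPM in CD4 control. Both CD4 groups overlapped, and every CD8 library lay below 11 CPM. The log2 fold change was -0.08 (SE 0.463) for CD4 ThpokAD against CD4 control. It was -4.34 (SE 0.536) for CD8 control against CD4 control, a level 20.3-fold lower and the widest of the 30 differences among these genes, and 4.26 (SE 0.534) for CD4 ThpokAD against CD8 control. One library set part of that size, since without CD8 control replicate 3, the highest of its group, the last 2 values became -5.28 and 5.18. Egr1, an immediate early gene, was also highest in that CD8 library, at 2.09, 1.79 and 11.9 CPM in replicates 1, 2 and 3, and the link between them was not tested.

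Per2 (chromosome 1, 91415982 to 91459324, minus strand) was scarce in all libraries and lowest in the cells without Thpok. It had 4.19, 4.98 and 2.76 CPM in CD4 ThpokAD (52 to 91 counts), 7.27, 14.4 and 6.90 CPM in CD8 control cells, and 10.9, 13.7 and 8.10 CPM in CD4 control. The ThpokAD libraries lay below all 6 others, while CD8 control and CD4 control overlapped. The log2 fold changes were -1.46 (SE 0.434) for CD4 ThpokAD against CD4 control, -0.20 (SE 0.424) for CD8 control against CD4 control and -1.26 (SE 0.432) for CD4 ThpokAD against CD8 control.

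Cry1 (chromosome 10, 85131700 to 85185064, minus strand), the cryptochrome repressor, varied least between the CD4 groups. Its level was 108, 136 and 91.4 CPM in CD4 ThpokAD cells, 85.7, 62.5 and 97.5 CPM in CD8 control cells, and 108, 126 and 110.2 CPM in CD4 control. The ThpokAD libraries overlapped both other groups, and the CD8 libraries lay below the CD4 control libraries by a log2 fold change of -0.49 (SE 0.202). For CD4 ThpokAD against CD4 control the value was -0.04 (SE 0.201).

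The activator Clock (chromosome 5, 76209868 to 76304792, minus strand) was lower in both other groups than in CD4 control. It stood at 32.2, 34.0 and 47.4 CPM in CD4 ThpokAD, at 50.9, 27.2 and 45.1 CPM in CD8 control cells, and at 109.7, 84.8 and 73.0 CPM in CD4 control. Every CD4 control library was above the 6 others, which overlapped one another. The log2 fold changes were -1.23 (SE 0.277) for CD4 ThpokAD against CD4 control and -1.12 (SE 0.276) for CD8 control against CD4 control, against -0.12 (SE 0.274) for CD4 ThpokAD against CD8 control.

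The Rev-erb genes, which repress Arntl, also differed from each other. Nr1d1 (chromosome 11, 98767932 to 98775333, minus strand) was at 4.09, 6.34 and 5.94 CPM in CD4 ThpokAD, at 15.8, 32.4 and 21.1 CPM in CD8 control cells, and at 4.10, 5.89 and 2.21 CPM in CD4 control. The CD8 libraries were above all CD4 libraries, and the CD4 groups overlapped. Nr1d1 was 5.67-fold higher in CD8 control than in CD4 control (log2 fold change 2.5, SE 0.456), and the value for CD4 ThpokAD against CD8 control was -2.08 (SE 0.448). Nr1d1 shares 263 bases with Thra on the opposite strand, 8.55% of its exon length, and since strand was not marked, reads there cannot be assigned. Thra itself averaged 4.46 ± 3.13 CPM in CD4 ThpokAD libraries, 5.73 ± 2.30 CPM in CD8 control libraries and 4.26 ± 1.01 CPM in CD4 control libraries, which overlapped.

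Nr1d2 (chromosome 14, 18204054 to 18239127, minus strand) was highest in CD4 control instead. Its level was 131, 157 and 174 CPM in CD4 ThpokAD cells, 109, 156 and 143 CPM in CD8 control cells, and 230.1, 197 and 218 CPM in CD4 control. The CD4 control libraries lay above the 6 others, by log2 fold changes of -0.48 (SE 0.163) for CD4 ThpokAD and -0.66 (SE 0.164) for CD8 control. The 6 others overlapped.

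Tef and Dbp, activators at D-boxes, averaged highest in CD8 control, where Nfil3 was lowest, but overlapped there with CD4 ThpokAD. Tef (chromosome 15, 81802421 to 81826863, plus strand) was at 39.5, 54.4 and 74.0 CPM in CD4 ThpokAD, at 65.2, 86.9 and 85.1 CPM in CD8 control cells, and at 17.5, 22.1 and 31.3 CPM in CD4 control. All 6 libraries of the first 2 groups were above all CD4 control libraries. The difference from CD4 control was 1.24 (SE 0.289) on the log2 scale in CD4 ThpokAD and 1.74 (SE 0.292) in CD8 control, or 2.37-fold and 3.34-fold. Tef thus differed from CD4 control in the same direction as Nfil3 in CD4 ThpokAD and in the opposite direction in CD8 control.

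Dbp (chromosome 7, 45705088 to 45710203, plus strand) was a low transcript, with 44 to 378 counts per library. It stood at 2.69, 6.73 and 8.70 CPM in CD4 ThpokAD, at 7.90, 9.54 and 9.32 CPM in CD8 control cells, and at 5.03, 2.51 and 4.55 CPM in CD4 control. CD8 control lay above CD4 control without overlap (log2 fold change 1.15, SE 0.498), and the ThpokAD libraries spanned most of the range of both. Dbp shares 539 bases, 18.0% of its exon length, with Sphk2 on the opposite strand. Sphk2 was at 24.5 ± 7.14, 32.3 ± 9.90 and 29.4 ± 3.22 CPM in CD4 ThpokAD, CD8 control and CD4 control, above Dbp in every group, and reads in the shared stretch cannot be assigned. The overlaps of Bhlhe40 with 0610040F04Rik (118 bases) and of Tef with Gm17597 (193 bases) covered 2.51% and 2.45% of their exons. Among the ThpokAD libraries, Bhlhe40, Nfil3, Nr1d2, Dbp, Tef and Clock were all lowest in replicate 1 and highest in replicate 3. Per2 and Cry1 were lowest in replicate 3 instead, while Per1 was lowest and Nr1d1 highest in replicate 2.

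**Figure D2:**
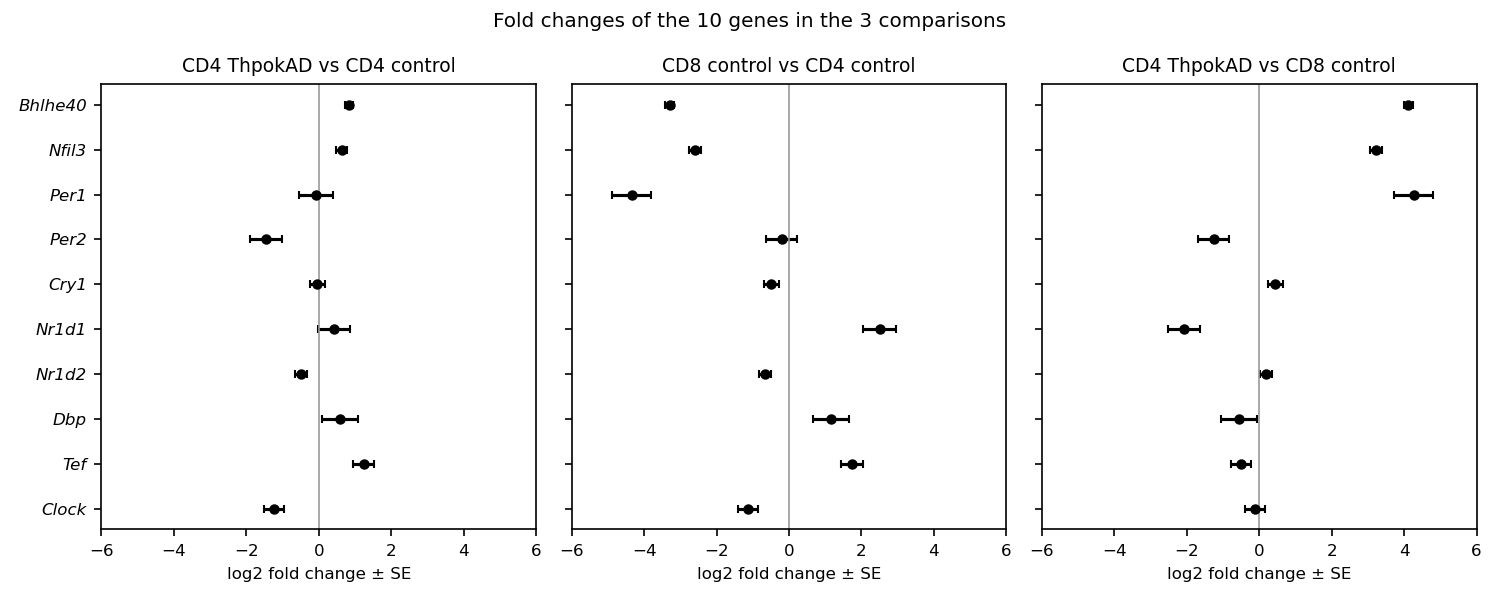
Log2 fold change (x axis) with its SE for each of the 10 genes in the 3 comparisons, from the edgeR fit of all 9 libraries. Bhlhe40 and Nfil3 lie on the same side of 0 in each panel, and the clock genes lie on both sides of it in each panel.

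Set against CD4 control, CD4 ThpokAD cells had Bhlhe40 (0.83), Nfil3 (0.63) and Tef (1.24) higher without overlap, and Per2 (-1.46), Clock (-1.23) and Nr1d2 (-0.48) lower without overlap, as log2 fold changes. Per1, Cry1, Nr1d1 and Dbp overlapped. The groups did not overlap for 25.7% of all genes tested (13.2% higher and 12.5% lower). The edgeR fit called 1 of the 10, Bhlhe40, at an adjusted p under 0.05, where 2.74% of all genes were called (1.81% higher and 0.928% lower). Because the genes were chosen on these libraries, nothing is read from that count, nor from those of the next comparisons.

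Set against CD4 control, CD8 control cells had 6 of the 10 lower without overlap (Bhlhe40, Nfil3, Per1, Cry1, Nr1d2 and Clock) and 3 higher (Nr1d1, Dbp and Tef). Per2 overlapped. The groups did not overlap for 33.9% of all genes (17.3% higher and 16.6% lower), and 7 of the 10 were called where 11.7% of all genes were (5.13% higher and 6.55% lower). Here Bhlhe40 went with Per1, and to a lesser extent with Cry1, Nr1d2 and Clock, and went opposite to Nr1d1, Dbp and Tef.

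Set against CD8 control, CD4 ThpokAD cells had Bhlhe40 (4.11), Nfil3 (3.22) and Per1 (4.26) higher and Per2 (-1.26) and Nr1d1 (-2.08) lower without overlap, as log2 fold changes. Cry1, Nr1d2, Dbp, Tef and Clock overlapped, with values between -0.56 and 0.44. Over all genes 27.1% did not overlap (14.6% higher and 12.6% lower), and 4 of the 10 were called where 6.54% of all genes were (4.63% higher and 1.91% lower). The 3 comparisons share libraries with one another, so their values for a gene are not independent.

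**Figure D3:**
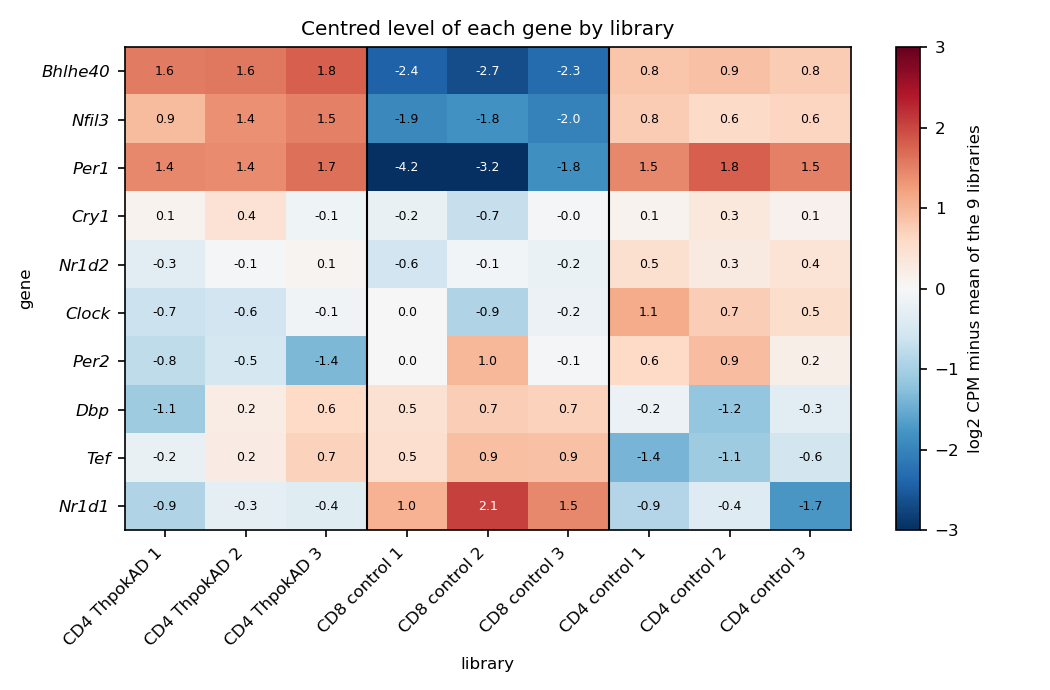
Log2 CPM of each gene in each library after subtracting that gene's mean over the 9 libraries (colour and printed number, red above and blue below the mean). Bhlhe40, Nfil3 and Per1 share a blue CD8 block while Dbp, Tef and Nr1d1 share a red one.

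Per1 and Bhlhe40 were both lower in CD8 than in CD4 cells, and their values parted between the CD4 groups. Bhlhe40 was 1.77-fold higher in CD4 ThpokAD than in CD4 control with no overlap, while the corresponding log2 fold change of Per1 was -0.08 with overlap. To place this among other genes, the log2 CPM of each gene was centred on its mean over the 9 libraries, and the root mean square difference from Bhlhe40 was taken for 7073 genes of at least 4 average log2 CPM. The closest genes were Fosl2 (0.330), an AP-1 subunit, Pdcd1 (0.387), which encodes the inhibitory receptor PD-1, the chemokine receptor-like gene Ccrl2 (0.407), Csrnp1 (0.426) and Nfil3 (0.430). Fosl2 averaged 287 ± 26.3 CPM in CD4 ThpokAD libraries, 24.6 ± 4.35 CPM in CD8 control libraries and 251 ± 28.4 CPM in CD4 control libraries. Pdcd1 averaged 416 ± 125 CPM in CD4 ThpokAD libraries, 24.9 ± 5.30 CPM in CD8 control libraries and 254 ± 58.9 CPM in CD4 control libraries.

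Among the clock genes, Per1 ranked 45 of 7073 in likeness to Bhlhe40 (0.796), Cry1 979 (1.58), Nr1d2 1430 (1.65), Clock 2252 (1.73) and Tef 6865 (2.32). Per2 (2.23), Dbp (2.25) and Nr1d1 (2.86) were below the level limit and carry no rank. For Nfil3 the closest genes were Litaf (0.249), Ccrl2 (0.314) and Rgcc (0.330), and Bhlhe40 ranked 10. Litaf averaged 213 ± 8.06 CPM in CD4 ThpokAD libraries, 27.4 ± 5.29 CPM in CD8 control libraries and 142 ± 34.5 CPM in CD4 control libraries. For Dbp they were Acad9 (0.262), Terf2ip (0.277) and Msantd4 (0.287), with Tef at rank 329 (0.507). The 9 libraries share 3 groups, so this likeness mostly compares group levels.

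Levels of different genes were compared per kilobase of exon, with all annotated exons of a gene joined. That length can exceed the length of the transcripts present, so the order of genes depends on it. In CPM per kilobase, Bhlhe40 came first in each group, at 514 ± 45.9 in CD4 ThpokAD, 29.7 ± 3.61 in CD8 control and 290.1 ± 13.8 in CD4 control. In the CD8 cells it no longer stood apart, since Nr1d2 (25.2 ± 4.41) and Cry1 (24.5 ± 5.33) lay within the spread. Nfil3 came second in both CD4 groups, at 106 ± 20.5 in CD4 ThpokAD and 68.4 ± 4.59 in CD4 control, but only 4 in order in CD8 control, at 11.4 ± 0.842, within the spread of Tef (10.1 ± 1.53). Cry1 and Nr1d2 came next in the CD4 cells and did not differ beyond their spread in CD4 ThpokAD (33.4 ± 6.71 and 28.5 ± 3.93). In CD4 control they were at 34.3 ± 2.82 and 39.8 ± 3.09, which meet at their SDs.

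Per1 took place 5 in both CD4 groups, at 18.5 ± 1.82 CPM per kilobase in CD4 ThpokAD and 19.6 ± 2.51 in CD4 control, and place 10 in CD8 control at 0.948 ± 0.778. The least abundant gene was Per2 in CD4 ThpokAD (0.679 ± 0.192) and Nr1d1 in CD4 control (1.32 ± 0.597), where Per2 (1.86 ± 0.480) and Dbp (1.35 ± 0.446) did not differ from it beyond their spread. In CD4 ThpokAD, Clock (2.76 ± 0.603), Dbp (2.02 ± 1.02) and Nr1d1 (1.77 ± 0.391) each overlapped the next in order, and in CD8 control so did Clock (2.99 ± 0.902) and Dbp (2.98 ± 0.298).

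Ratios within a library compare partners of the same arm. Nfil3 over the sum of Dbp, Tef and Hlf, in CPM per kilobase, was 9.13 to 11.5 in CD4 ThpokAD, 0.741 to 1.01 in CD8 control and 12.0 to 16.7 in CD4 control. On this scale the D-box repressor was thus at least 9.13-fold above the activators in every CD4 library and about level with them in the CD8 libraries. The size of such a ratio depends on the exon lengths used and does not count transcripts, whereas its difference between groups does not depend on the length of Nfil3. The activator sum alone was 7.25 to 13.5 in CD4 ThpokAD, 11.3 to 14.8 in CD8 control and 4.40 to 5.57 in CD4 control. Nr1d2 over Nr1d1 was 14.1 to 18.3, 2.74 to 3.95 and 19.0 to 56.0 in CD4 ThpokAD, CD8 control and CD4 control. Per1 over Per2 was 20.4 to 43.8 in CD4 ThpokAD, 0.263 to 1.55 in CD8 control and 9.57 to 13.4 in CD4 control. In none of these 3 ratios did any 2 groups overlap. Bhlhe40 over Nfil3, by contrast, stayed at 4.39 to 5.83 in CD4 ThpokAD and 3.97 to 4.68 in CD4 control, with 2.12 to 3.13 in CD8 control. Between the CD4 groups the gaps were narrow for the Nfil3 ratio (11.5 against 12.0) and for Nr1d2 over Nr1d1 (18.3 against 19.0). Nr1d1 was at only 2.21 to 6.34 CPM there. Single genes did not overlap for 25.7% to 33.9% of all genes tested, so nothing is read from the lack of overlap in ratios of chosen genes.

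**Figure D4:**
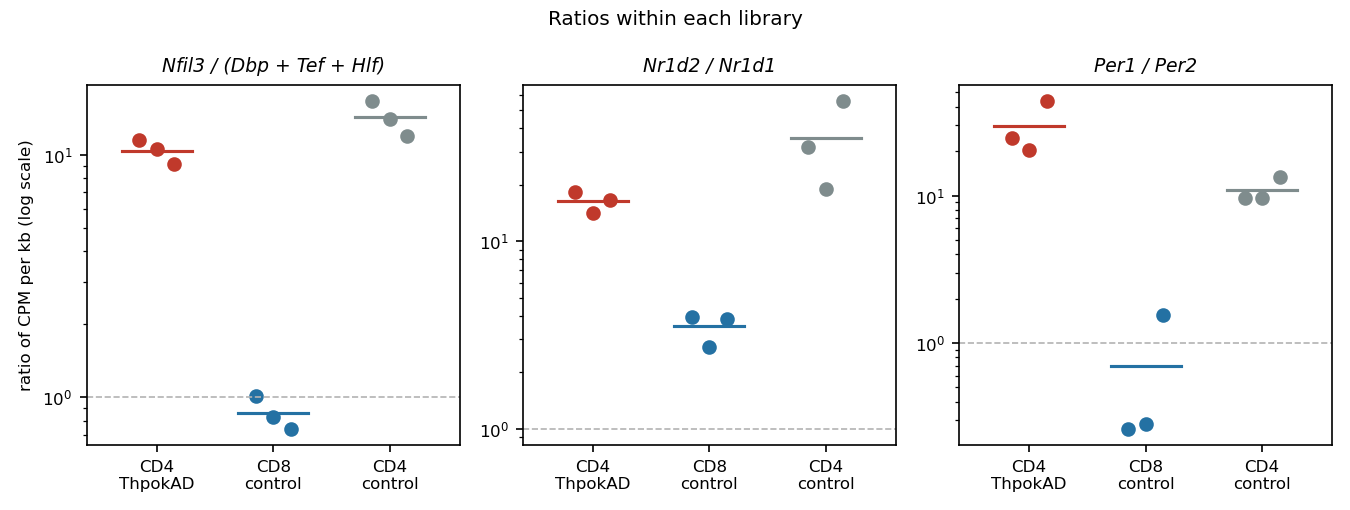
Ratios of CPM per kilobase within each library (log scale, points are libraries, lines are means of 3, dashed line marks a ratio of 1). Nfil3 over Dbp, Tef and Hlf is 0.741 to 1.01 in CD8 control and at least 9.13 in every CD4 library, and Per1 over Per2 is at most 1.55 in CD8 control and at least 9.57 in the CD4 libraries.

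The rest of the clock loop was read from the same edgeR fit, with p-values adjusted over all 15738 genes. This list and the further lists were also chosen with earlier results of these data known. Their counts and p-values are therefore a description, and no excess over all genes is read from them. Of the 12 other loop genes 8 were tested. None passed in CD4 ThpokAD against CD4 control by edgeR, none had an unadjusted p under 0.05, and DESeq2 called 0. Counts of the further lists stand beside the shares of all genes called by edgeR, which were 1.81% higher and 0.928% lower in that comparison, 5.13% higher and 6.55% lower in CD8 control against CD4 control, and 4.63% higher and 1.91% lower in CD4 ThpokAD against CD8 control. The median log2 fold change of the list was 0.31, against 0.00349 over all genes. Arntl, the partner of Clock, averaged 117 ± 27.9 CPM in CD4 ThpokAD libraries and 114 ± 25.5 CPM in CD4 control libraries (edgeR adjusted p = 0.965), so that it differed little where Clock was 2.35-fold lower. Per3 (log2 fold change -0.32, adjusted p = 0.871), Cry2 (-0.03, adjusted p = 0.991) and Rora (-0.28, adjusted p = 0.473) were not called by edgeR. The directions of Arntl, Per3 and Cry2 turned when single libraries were left out. Hlf, the third D-box activator, was at 8.88, 9.24 and 7.64 CPM in CD4 ThpokAD against 3.35, 6.17 and 0.466 CPM in CD4 control, without overlap but not called (edgeR adjusted p = 0.467). Bhlhe41, the paralog of Bhlhe40, had at most 5 counts in any library and was not tested.

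In CD8 control against CD4 control, 2 of the 8 fell and none rose (6.55% of all genes fell), with a list median of -0.59 against 0.0101 over all genes. Rora, the receptor that opposes the Rev-erbs on Arntl, fell to 217 ± 31.2 CPM in CD8 control, against 825 ± 143 CPM in CD4 control (log2 fold change -1.93, SE 0.166, edgeR adjusted p = 0.000129). Arntl fell to 54.0 ± 6.46 CPM in CD8 control, against 114 ± 25.5 CPM in CD4 control (-1.07, SE 0.229, edgeR adjusted p = 0.0176). That call was lost without CD8 control replicate 1 or 2 or CD4 control replicate 2 or 3 (adjusted p = 0.0532 to 0.0694). In CD4 ThpokAD against CD8 control the same pair rose, Rora by 1.65 (edgeR adjusted p = 0.000539) and Arntl by 1.11 (edgeR adjusted p = 0.0234, lost when replicate 1 or 2 of CD4 ThpokAD or any CD8 control library was left out, 0.0533 to 0.0881). The list median was 1.24 there. The CD8 cells had less Rora and Arntl than CD4 control, together with more Nr1d1 (log2 fold change 2.5). Nr1d2, the more abundant Rev-erb transcript, was lower there instead (-0.66). A link between these levels was not tested.

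**Figure D5:**
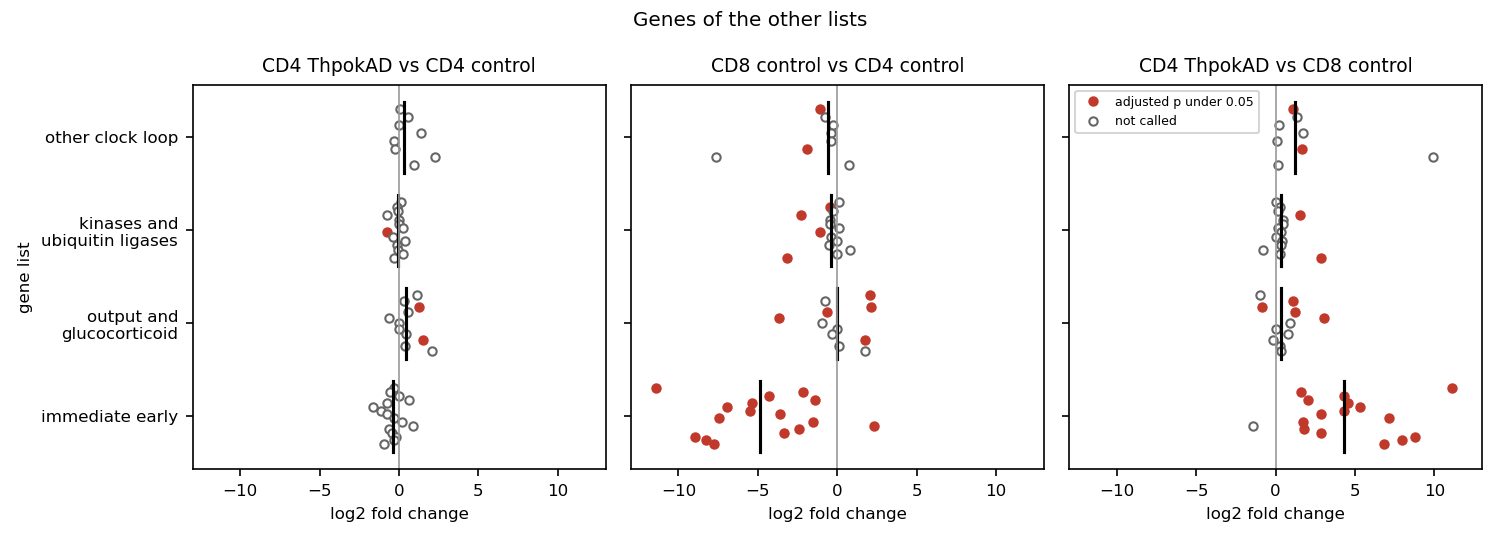
Log2 fold changes of the tested genes of 4 further lists (rows) in the 3 comparisons, with called genes filled in red, others open, and the list median as a black bar. Nearly all immediate early genes are lower in CD8 control, while the medians of the 3 other lists lie between -0.59 and 1.24. Points beyond 7 in either direction include Nr4a1 and Nr4a2, which had 46 to 179 counts in each CD8 control library, and also genes with few or no counts there, such as Atf3, whose fitted values are not measured folds.

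Genes listed as kinases and ubiquitin ligases that set the stability of Per and Cry proteins mostly did not pass the test between the CD4 groups. The list, called kinases or ligases further on, also holds Usp2 and Sirt1, which are neither. Of 14 tested, 1 fell and none rose by edgeR in CD4 ThpokAD against CD4 control, where 0.928% of all genes fell, and the list median was -0.06. The count was 0 when any 1 of the 6 CD4 libraries was left out. In CD8 control against CD4 control 4 fell, beside 6.55% of all genes, and none rose, with a median of -0.42. Csnk1e, which encodes casein kinase 1 epsilon, fell to 9.20 ± 1.02 CPM in CD8 control, against 44.4 ± 6.41 CPM in CD4 control (-2.27, SE 0.207, edgeR adjusted p = 0.000179). The deubiquitinase gene Usp2 fell by 3.17 on the log2 scale (SE 0.644, edgeR adjusted p = 0.0141). Csnk1a1 fell by 0.45 (edgeR adjusted p = 0.0364), a call lost without CD4 ThpokAD replicate 1, any CD8 control library or CD4 control replicate 2 or 3 (0.0598 to 0.133). Set against CD8 control, CD4 ThpokAD cells had Csnk1e (1.53, edgeR adjusted p = 0.00296) and Usp2 (2.85, edgeR adjusted p = 0.0325) higher, and the call of Usp2 held only when CD8 control replicate 2 was the library left out (otherwise 0.0509 to 0.0981). The list median was 0.32 in that comparison.

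Clock output and glucocorticoid response genes moved in both directions. Of 11 tested, 2 rose in CD4 ThpokAD against CD4 control, where 1.81% of all genes rose, and the list median was 0.45. Sgk1, a kinase induced by glucocorticoids, was at 347 ± 33.1 CPM in CD4 ThpokAD against 119.8 ± 10.4 CPM in CD4 control (log2 fold change 1.53, SE 0.134, edgeR adjusted p = 0.00076). Id2, an inhibitor of E proteins, was at 790 ± 37.9 CPM in CD4 ThpokAD against 327 ± 36.4 CPM in CD4 control (1.27, SE 0.133, edgeR adjusted p = 0.00169). In CD8 control against CD4 control 3 rose and 2 fell, beside 5.13% and 6.55% of all genes (median -0.03). Sgk1 (1.73, edgeR adjusted p = 7.2e-05), Ddit4 (2.09, edgeR adjusted p = 0.00133) and Id2 (2.12, edgeR adjusted p = 2.71e-05) rose. Klf9, a glucocorticoid and clock target, fell to 2.40 ± 2.02 CPM in CD8 control, against 31.4 ± 5.69 CPM in CD4 control (-3.70, SE 0.759, edgeR adjusted p = 0.0147), a call lost without CD8 control replicate 3 (0.0600). In CD4 ThpokAD against CD8 control, Klf10 (1.20, edgeR adjusted p = 0.00163), Fkbp5 (1.09, edgeR adjusted p = 0.0253) and Klf9 (3.04, edgeR adjusted p = 0.0442) rose and Id2 fell (-0.85, edgeR adjusted p = 0.00667), with a median of 0.35. Fkbp5 lost its call when replicate 1 or 2 of CD4 ThpokAD or of CD8 control was left out (0.0742 to 0.0944), and Klf9 unless CD8 control replicate 2 was the one left out (0.0519 to 0.129).

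Immediate early genes, which respond within minutes to receptor stimulation or handling, moved with Bhlhe40, Nfil3 and Per1 between CD4 and CD8 cells. Lineage and the tetramer used for sorting differ together between these cells and cannot be told apart. Of the 16, 15 fell in CD8 control against CD4 control and 1 rose (Ier3), beside 6.55% and 5.13% of all genes, with a list median of -4.84. The list was chosen with earlier results known, so no excess is read from its counts. Nr4a1 was at 4.57 ± 2.72 CPM in CD8 control, against 2303 ± 166 CPM in CD4 control (log2 fold change -8.99, edgeR adjusted p = 1.02e-05). Nr4a2 (-8.29, edgeR adjusted p = 1.9e-06) and Btg2 (-2.17, edgeR adjusted p = 1.48e-05) fell as well. Atf3, with 0 to 2 counts in the CD8 libraries, averaged 77.7 ± 10.1 CPM in CD4 control. Fosb, Egr2, Egr3 and Atf3 averaged 0.539, 1.36, 0.0943 and 0.0164 CPM in CD8 control. They passed the count filter only through the CD4 libraries. Their calls are included in the counts of 15 in this paragraph but are not read as tests. In CD4 ThpokAD against CD8 control 15 rose, beside 4.63% of all genes, and none fell (median 4.33), among them Nr4a2 (7.98, edgeR adjusted p = 2.64e-06), Nr4a1 (8.81, edgeR adjusted p = 2.04e-05) and Dusp1 (4.33, edgeR adjusted p = 5.7e-05). Atf3, also among the 15, averaged 62.8 ± 6.27 CPM in CD4 ThpokAD.

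Between the CD4 groups, by edgeR none of the 16 was called in CD4 ThpokAD against CD4 control, while 5 had an unadjusted p under 0.05 and DESeq2 called 1. The list median was -0.39, and the libraries lay apart with CD4 ThpokAD lower for 8 of the 16 and higher for 1. Over all genes tested, 12.5% lay apart with CD4 ThpokAD lower and 13.2% with it higher. Egr1 was at 93.0, 140 and 157 CPM in CD4 ThpokAD against 188, 249 and 238 CPM in CD4 control (edgeR adjusted p = 0.61). The part of immediate early activation in the levels of Bhlhe40, Nfil3 and Per1 was not tested.

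Cytokine genes on which Bhlhe40 or Nfil3 is known to act were read as values. Il10, which Bhlhe40 represses in T cells, was at 12.1, 10.9 and 3.34 CPM in CD4 ThpokAD, had no count in the 3 CD8 control libraries, and was at 1.74, 1.66 and 2.21 CPM in CD4 control. Against a floor of 3 counts over the CD8 control group, it was at least 250-fold higher in CD4 ThpokAD and at least 53.1-fold higher in CD4 control. By group, Il10 thus followed the order of Bhlhe40, though it was not called between the CD4 groups (edgeR adjusted p = 0.15). Within each CD4 group the libraries ran the opposite way, with Il10 highest where Bhlhe40 was lowest. A link between these genes was not tested. Ifng was at 338, 459 and 518 CPM in CD4 ThpokAD cells, 82.4, 72.7 and 144 CPM in CD8 control cells, and 162, 229 and 257 CPM in CD4 control, without overlap. Csf2, a gene that needs Bhlhe40 in helper cells, had 0.998, 0.0547 and 0 CPM in CD4 ThpokAD cells, 0.293, 0.581 and 0.0493 CPM in CD8 control cells, and 2.55, 2.46 and 3.44 CPM in CD4 control. All its ThpokAD values were thus below all its CD4 control values, opposite to Bhlhe40, at 20 counts or fewer per ThpokAD library. Il4 had at most 46 counts in a library, and Il13 had none in any.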

How the data were processed

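RNA of sorted T cells was amplified by low-input kits without strand marking and read from both ends at 126 bp, per the labels' protocols. The submitters' processing notes name DESeq2, HTSeq, STAR, Trimmomatic, bcl2fastq 2.17 and the build mm10. For the annotation release, the strand setting, the role of each tool and the remaining versions, nothing is given in the sources used here. The values analysed are whole-number raw counts for each gene symbol, as deposited by the authors without normalization. A second deposited table holds a signal scaled by the authors, in which every count was multiplied by 1 factor for its library, and it served only in an alternative test.

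Libraries were grouped by their titles, with 3 in each group, and held 16664474 to 38981516 counts. After edgeR's filterByExpr (minimum count 10, minimum total 15), 15738 genes remained, which kept 99.8% or more of each library. Groups were compared by quasi-likelihood in edgeR 4.0.16 (R 4.3.3) on the counts of all 9 libraries, with TMM scaling, 1 coefficient per group and Benjamini-Hochberg adjustment over all genes tested. Calls were made at an adjusted p below 0.05, and rose, fell and changed are used of these only. Standard errors were derived from the log2 fold change and its F statistic. Lower bounds on folds use a floor of 3 counts over a group and cover counting error only. Alternatives were RLE size factors, DESeq2 1.42.0, no low-count filter, the 6 libraries of a comparison alone, the replicate number as a block, limma 3.58.1 on log2 of the scaled values with a pseudocount of 1, leaving out each library, and, added after seeing the data, bias-adjusted deviances and levels per kilobase.

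The 10 genes and all gene lists were chosen with earlier results of these data known. Named were the 10 genes, up to 4 called genes per list and comparison with the smallest adjusted p, and Arntl, Per3, Cry2, Rora and Bhlhe41 called or not. Likeness named the 5 closest genes for Bhlhe40 and the 3 closest for Nfil3 and Dbp, other than pseudogenes, predicted genes and receptor segments. Some genes that the rule covers are counted in their lists but not reported here. Ciart and the other loop genes, cytokines, Hlf, Egr1 and genes overlapping the 10 are named as values. Gene positions and exon lengths come from GENCODE M21 on mm10, 1-based, and promoter letters from RefSeq on GRCm38.p6.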

Additional observations from a re-analysis of the deposited data

How the results depend on the processing

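The 30 differences of the 10 genes were recomputed under 16 alternatives each. Of the 480 values, 478 moved by less than 1 SD between replicates. The other 2 are those of Per1 without CD8 control replicate 3, given above. The sign held in every alternative for 26 of the 30, the exceptions being Per1 and Cry1 in CD4 ThpokAD against CD4 control, Per2 in CD8 control against CD4 control and Clock in CD4 ThpokAD against CD8 control, all near 0. Counts of calls depended on the tool. In CD4 ThpokAD against CD4 control, DESeq2 called 1221 of 25980 genes in all. These held 5 of the 10, 2 kinases or ligases, 5 output genes and 1 immediate early gene. limma called 755 of 15738 genes, with 3 of the 10 and 1 immediate early gene. RLE scaling called 440 of 15738, with 1 of the 10 and 1 immediate early gene. The 6 libraries alone called 603 of 14675, with 2 of the 10 and 2 immediate early genes. Bias-adjusted deviances called 614 of 15738, with 3 of the 10 and 2 immediate early genes. In CD8 control against CD4 control, DESeq2 called 2892 of 25980 genes, with 8 output genes. In CD4 ThpokAD against CD8 control, DESeq2 called 2069 of 25980 genes, with 7 output genes. Bias-adjusted deviances called 1638 of 15738 there, with 4 loop genes, and the 6 libraries alone 772 of 14678, with 1 kinase or ligase. The cause of these shifts was not tested.

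The replicate numbers did not pair the libraries: same-numbered libraries correlated at -0.05 to 0.06 in their deviations from the group means, with 0 of 9 pairs over 0.1 and 0 libraries closest to their own number. With the replicate block, 281 of 15738 genes were called in CD4 ThpokAD against CD4 control, with 2 of the 10 and 0 kinases or ligases. In CD4 ThpokAD against CD8 control 684 of 15738 were called, with 1 kinase or ligase and 2 output genes.

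Leaving out 1 library gave 181 to 477 calls in CD4 ThpokAD against CD4 control, 1058 to 1667 in CD8 control against CD4 control and 589 to 788 in CD4 ThpokAD against CD8 control, with 1 to 2, 5 to 7 and 3 to 4 of the 10. In CD4 ThpokAD against CD4 control the counts were 181, 274 and 217 without CD4 ThpokAD replicates 1, 2 and 3, and 204, 193 and 226 without CD4 control replicates 1, 2 and 3. Loop genes called ran at 0 to 0, 1 to 2 and 1 to 2 in the 3 comparisons, kinases and ligases at 0 to 1, 3 to 4 and 1 to 2, output genes at 2 to 2, 4 to 6 and 2 to 4, and immediate early genes at 0 to 2, 15 to 16 and 14 to 15. Among uncalled genes in CD4 ThpokAD against CD4 control, Arntl (-0.11 to 0.22 over all libraries left out) turned to -0.03 and -0.10 without CD4 ThpokAD replicates 1 and 2 and to -0.11 without CD4 control replicate 1, Per3 (-0.86 to 0.09) to 0.09 without CD4 ThpokAD replicate 1, and Cry2 (-1.04 to 0.38) to 0.20, 0.38 and 0.14 without those same libraries as Arntl. Against CD8 control, Per3 turned to -0.05 with the replicate block, -0.06 by limma, and -0.46 and -0.14 (range -0.46 to 0.49) without CD4 ThpokAD replicate 2 and CD8 control replicate 1. Cry2 turned to -0.04 by limma and to -0.79 and -0.03 (range -0.79 to 0.63) without CD4 ThpokAD replicate 3 and CD8 control replicate 2. With 3 libraries a group, differences in the low transcripts Per2, Nr1d1 and Dbp carried log2 SEs of 0.424 to 0.498.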
